A study of Mus musculus with 8 samples.

Results

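The core circadian clock genes were examined in ERRα chromatin immunoprecipitation sequencing (ChIP-seq) peak lists of mouse skeletal muscle and liver. The members were the 10 genes Nr1d1, Nr1d2, Per1, Per2, Per3, Cry1, Cry2, Clock, Npas2 and Arntl (also called Bmal1), out of 19188 genes named in any list. A called interval was counted at a member when the authors' annotation named that gene and placed the interval within 20 kb of its transcription start site (TSS), which held for 66 of the 63890 intervals that lay within 20 kb of a TSS. ERRα was profiled in wild-type (WT) mice and in ERRα 3SA mice, whose ERRα carries mutations that inactivate phosphorylation sites in its amino-terminal domain. All mice were male C57BL/6N littermates of 2 to 3 months, taken at zeitgeber time 9, counted in hours from lights on. Liver was pooled from 2 mice and skeletal muscle (gastrocnemius and soleus) from 5 mice per genotype, and each pool was sequenced as 1 library against input DNA. Muscle nuclei were isolated before crosslinking and liver was crosslinked as homogenate, so the tissue and the preparation cannot be told apart. With 1 library per genotype and tissue, no difference between genotypes or tissues has a replicate check and no test is given.

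The 4 lists held 25427 peaks in WT muscle, 50647 in 3SA muscle, 21813 in WT liver and 29040 in 3SA liver. Peaks were ranked by the score of the peak caller within each list, and each rank was divided by the length of its list to give a top percentage, so that a smaller percentage is a stronger call. Scores were not compared between lists, since the number of reads behind each list is unknown. The exception is the alternatives with a score minimum, which applied the same minimum to every list. As a check of the tissue labels, 10 genes of skeletal muscle identity were counted, of which 7 in WT muscle, 8 in 3SA muscle, 4 in WT liver and 6 in 3SA liver had an interval within 20 kb, beside 45.1%, 63.5%, 39.2% and 49.2% of all genes. Their best interval was in the top 10% of the list at 6, 6, 1 and 0 genes in that order. Of 10 genes of hepatocyte identity, 2, 2, 3 and 7 had an interval, and 1 in WT muscle (top 8.63%) and none in the other lists reached the top 10%, so the hepatocyte genes did not set the liver lists apart by rank.

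The mammalian clock is a feedback loop of transcription. CLOCK or its paralogue NPAS2 pairs with BMAL1 and activates genes through E-boxes (CACGTG), among them those of the PER and CRY proteins, which return to the nucleus and repress the pair. The nuclear receptors REV-ERBα (Nr1d1) and REV-ERBβ (Nr1d2) form another arm and repress Arntl through ROR elements. ERRα is an orphan nuclear receptor of mitochondrial energy metabolism and binds the ERR response element (ERRE), TCAAGGTCA, which shares the letters AGGTCA with the ROR element.

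The ERRE occurred at 8 of the 38 places where clock gene intervals lay, when overlapping intervals of different lists were merged into 1 site. These 8 elements are shown because they are the letter-perfect matches to the ERRα site in the clock gene intervals. Each is given from 5′ to 3′ on the strand that reads the ERRE, which is in capitals, with 25 flanking bases on either side, from RefSeq GRCm38.p6, the genome of mm10.
Nr1d1 distal element, in a Thra intron (chr11:98760122-98760180, plus strand): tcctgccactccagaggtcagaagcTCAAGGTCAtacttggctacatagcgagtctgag
Nr1d1 promoter element (chr11:98776292-98776350, plus strand): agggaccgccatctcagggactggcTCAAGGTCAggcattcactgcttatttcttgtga
Per2 upstream element (chr1:91466041-91466099, plus strand): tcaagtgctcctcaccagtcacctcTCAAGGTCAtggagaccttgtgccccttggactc
Per2 intron 1 element (chr1:91456882-91456940, minus strand): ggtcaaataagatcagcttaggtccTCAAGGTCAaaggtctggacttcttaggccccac
Cry2 upstream element (chr2:92443701-92443759, plus strand): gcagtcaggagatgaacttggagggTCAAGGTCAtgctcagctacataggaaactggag
Cry2 intron element (chr2:92424742-92424800, minus strand): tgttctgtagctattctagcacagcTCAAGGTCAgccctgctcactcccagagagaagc
Arntl intron 1 element (chr7:113219663-113219721, minus strand): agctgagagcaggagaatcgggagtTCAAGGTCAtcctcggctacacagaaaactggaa
Npas2 intron 1 element (chr1:39213211-39213269, plus strand): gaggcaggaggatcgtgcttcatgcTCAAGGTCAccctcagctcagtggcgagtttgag

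The Nr1d1 distal, Nr1d1 promoter and Per2 upstream elements were carried by intervals in at least 3 lists, and the Per2 intron 1, Cry2 and Arntl elements by liver intervals. The Npas2 element lay in a 3SA muscle interval. The Arntl and Npas2 elements lay in sequence marked as repeats in the genome, which is 25% of the 8. By the same mark, repeats held 40.1% (WT muscle), 42.5% (3SA muscle), 52.3% (WT liver) and 51.9% (3SA liver) of the elements in the centres of all intervals within 20 kb of a TSS. The 25% counts marked bases only. In every list the detailed annotation of the Nr1d1 distal interval named a short interspersed (SINE) repeat, as did that of the Cry2 upstream interval in WT liver. The flanks of the Arntl and Cry2 upstream elements had 26 of 50 bases in common, the highest number among the pairs of elements. Next came the Nr1d1 distal element, with 24 in common with each of these, and the pair of Npas2 and Cry2 upstream, with 23.

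The 3 highest-ranked clock gene intervals of each muscle list, at Nr1d2, Npas2 and Nr1d1, held no ERRE. They are shown because the E-box (CACGTG, in capitals) occurred in each of them, and in the Nr1d2 site also the core AAGGTCA (in capitals), both searched on either strand and printed on the plus strand of GRCm38.p6.
Nr1d2 intron 1 site (chr14:18238305-18238587, plus strand): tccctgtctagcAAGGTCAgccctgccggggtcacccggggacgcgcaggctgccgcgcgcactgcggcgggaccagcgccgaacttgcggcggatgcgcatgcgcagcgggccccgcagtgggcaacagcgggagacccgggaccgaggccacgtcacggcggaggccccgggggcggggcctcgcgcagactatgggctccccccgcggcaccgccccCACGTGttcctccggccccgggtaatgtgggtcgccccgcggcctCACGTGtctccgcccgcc
Npas2 intron 1 site (chr1:39196141-39196200, plus strand): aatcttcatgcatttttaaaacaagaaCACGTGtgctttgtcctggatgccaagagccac
Nr1d1 intron 1 site (chr11:98773011-98773070, plus strand): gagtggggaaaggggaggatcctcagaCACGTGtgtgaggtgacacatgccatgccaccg

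All 10 members had an interval within 20 kb in 3SA liver, 8 in WT muscle, 6 in 3SA muscle and 5 in WT liver. Of all genes named in any list, 49.2% had one in 3SA liver, 45.1% in WT muscle, 63.5% in 3SA muscle and 39.2% in WT liver. The members' count was thus above the share of all genes in 3SA liver and WT muscle, less far above it in WT liver, and near it in 3SA muscle. The intervals at members numbered 16 in WT muscle, 15 in 3SA muscle, 14 in WT liver and 21 in 3SA liver. The 3SA list of muscle was longer than the WT list and held fewer clock genes at the reported threshold. The muscle lists held 4 clock genes each at a score of at least 50 and 2 each at a score of at least 100. The Clock, Per1, Per3 and Cry1 calls of WT muscle had scores between 30 and 49, and the Arntl and Cry2 calls of 3SA muscle had a score of 30. The 3SA liver count fell from 10 to 6 members at a score of at least 50. It was 9 when intervals were assigned by the RefSeq start of the gene.

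**Figure D1:**
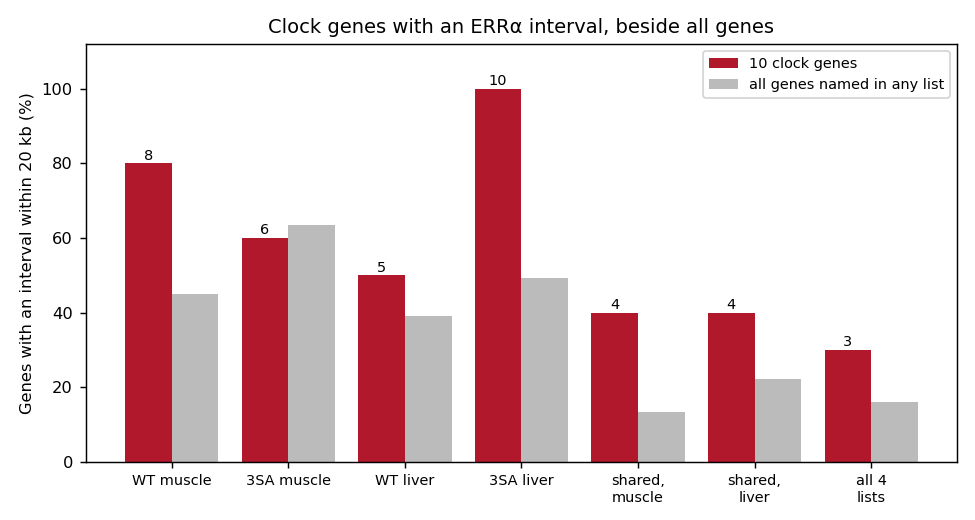
Percentage of the 10 clock genes (red, with the number of genes above each bar) and of the 19188 genes named in any list (grey) that had an ERRα interval within 20 kb of the TSS, in each list, at a place shared by WT and 3SA in a tissue, and in all 4 lists. The clock genes reached 10 of 10 in 3SA liver and were near the grey bar in 3SA muscle.

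Nr1d1, Nr1d2 and Per2 were called in all 4 lists, 3 of the 10 members, beside 16% of all genes. An interval shared by both genotypes, with centres within 300 bp, was found in muscle at 4 members (Nr1d1, Nr1d2, Per2 and Npas2), beside 13.4% of all genes. In liver it was also found at 4 members (Nr1d1, Nr1d2, Per2 and Arntl), beside 22.2% of all genes. Cry2 missed the liver count because the centres of its overlapping upstream intervals were more than 300 bp apart. Most of the genes called in 1 genotype of a tissue were the same in muscle and liver, but in the opposite genotype. In muscle, Clock, Per1, Per3 and Cry1 had an interval in WT and none in 3SA (4 members, beside 11.8% of all genes), and Arntl and Cry2 had one in 3SA and none in WT (2 members, beside 30.2%). In liver, Clock, Npas2, Per1, Per3 and Cry1 had an interval in 3SA and none in WT (5 members, beside 19.9%), and no member was called in WT liver alone (0 members, beside 9.84%). Clock, Per1, Per3 and Cry1 therefore had intervals in the same pair of lists, WT muscle and 3SA liver. None of these calls was in the top 10% of its list. In WT muscle the best intervals stood between top 16% and top 40.2%, with scores between 36 and 49. In 3SA liver the best scores were 31 at Clock (top 97.1%), 37 at Per1 and Cry1 (top 65%) and 55 at Per3 (top 38.6%). The Cry1 intervals of the lists did not overlap. Per1 was also called in 3SA muscle and WT liver when intervals were assigned by the RefSeq start of the gene.

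**Figure D2:**
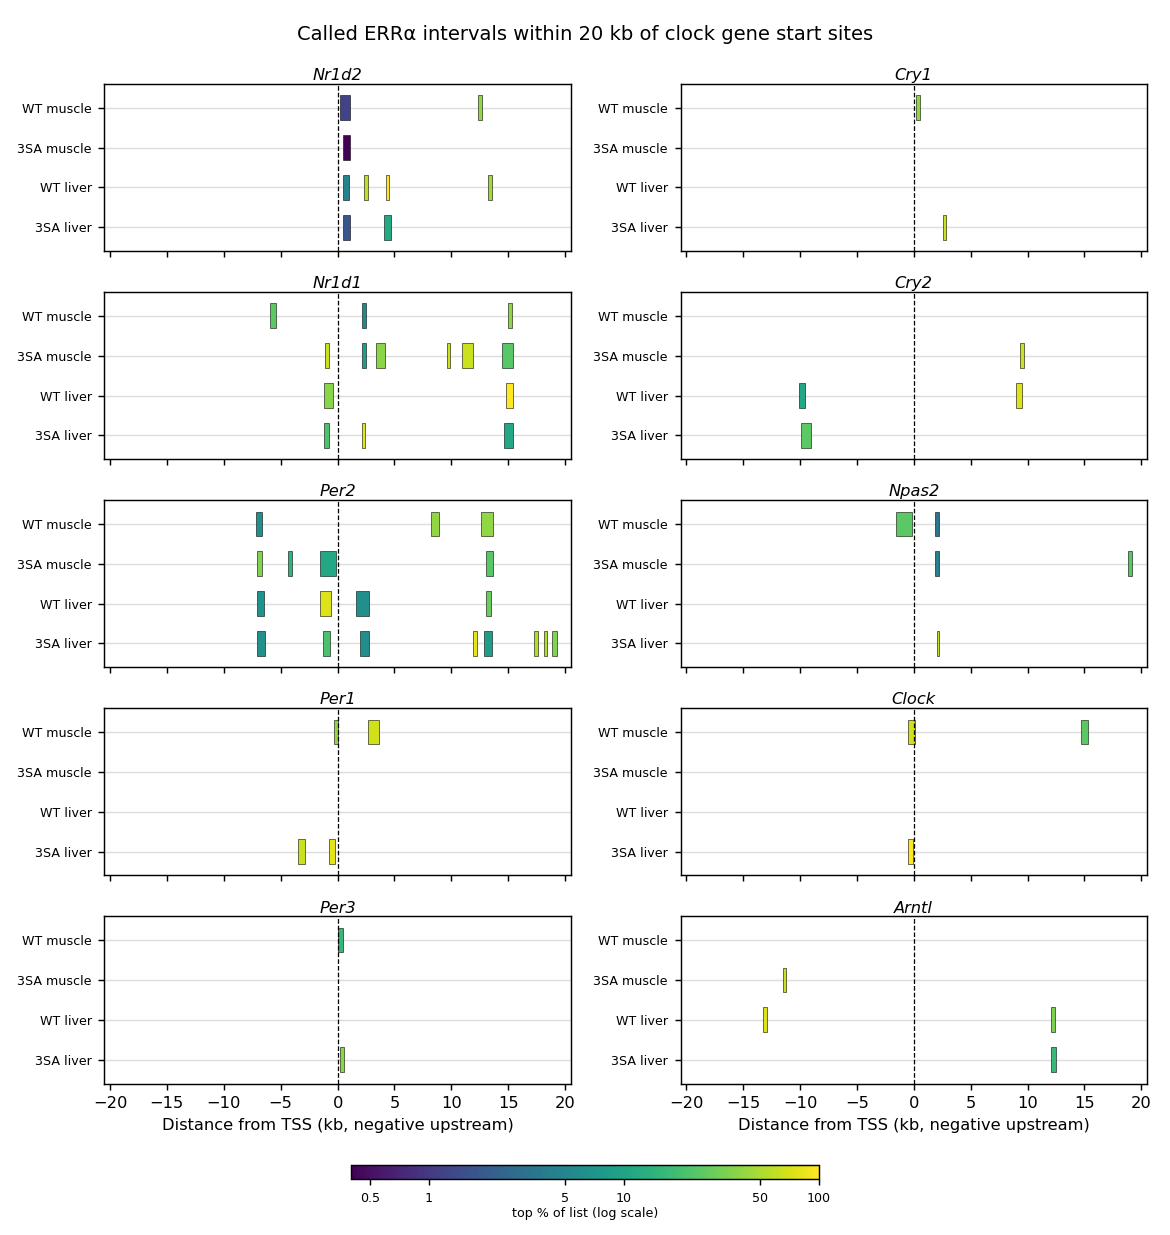
Called ERRα intervals within 20 kb of the TSS of each clock gene, drawn to scale by list; the x axis is the distance from the TSS in kb (negative upstream) and the colour is the rank as top percentage of the list on a log scale. The Nr1d2 intron 1 interval near the TSS is the darkest interval drawn for each list, and the Per1, Per3, Cry1 and Clock panels hold intervals in WT muscle and 3SA liver alone.

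Nr1d2, which encodes REV-ERBβ, carried the highest-ranked clock gene interval of each list. It lay in intron 1, with its centre between 663 and 820 bp downstream of the TSS. In WT muscle it spanned chr14:18238030-18238857 and ranked 301st (top 1.18%). In 3SA muscle it spanned chr14:18237986-18238617 and ranked 208th (top 0.411%). In both tissues the 3SA interval stood higher in its list than the WT interval, since it ranked 995th in WT liver (top 4.56%) and 488th in 3SA liver (top 1.68%). The stretch common to the 4 intervals, chr14:18238094-18238595, held both E-boxes and the core AAGGTCA printed above and no ERRE. Its closest match to the ERRE had 1 mismatch, T1G, counted from 1 at the 5′ end of the ERRE, and ended in that core. A match with at most 1 mismatch was present in the centres of 18% of all intervals within 20 kb in WT muscle, 19.4% in 3SA muscle, 38.8% in WT liver and 39.1% in 3SA liver.

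Nr1d2 also had weaker intervals in intron 1. A site 4384 to 4394 bp downstream of the TSS was called in liver of both genotypes, at rank 21383 in WT (top 98%) and at rank 3231 in 3SA (top 11.1%). An interval 12539 bp downstream was called in WT muscle (top 40.2%), and intervals 2493 and 13406 bp downstream in WT liver (top 57.4% and top 45.2%). In 3SA muscle the intron 1 site near the TSS was the only Nr1d2 interval within 20 kb.

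Nr1d1, which encodes REV-ERBα, had 3 recurrent sites, each called in a different set of lists. The intron 1 site, 2271 to 2311 bp downstream of the TSS, ranked 1338th in WT muscle (top 5.26%) and 4317th in 3SA muscle (top 8.52%). It ranked 23055th in 3SA liver (top 79.4%) and was not called in WT liver. This site was therefore high in both muscle lists and low or missing in liver, and the E-box printed above lay in all 3 intervals.

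The Nr1d1 promoter site, 808 to 975 bp upstream of the TSS, showed the other order. It ranked 8204th in WT liver (top 37.6%) and 6120th in 3SA liver (top 21.1%). In muscle it was called in 3SA at the lowest score of the list (rank 32824, top 64.8%) and was not called in WT. Its ERRE, at chr11:98776317-98776325, lay in an intron of the neighbouring gene Gm31862, between 18 and 135.5 bp from the interval centres.

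The distal Nr1d1 site, 14924 to 15181 bp downstream of the TSS, was called in all 4 lists and lay in intron 4 of Thra, which encodes thyroid hormone receptor α and overlaps the 3′ end of Nr1d1. It ranked 9931st in WT muscle (top 39.1%) and 11987th in 3SA muscle (top 23.7%). In liver it ranked 21383rd in WT (top 98%), close to the end of that list, and 3162nd in 3SA (top 10.9%). Its ERRE stood at chr11:98760147-98760155 in every interval. Nr1d1 had 6 intervals in 3SA muscle, and 2.64% of the genes called in that list had as many. Those not yet named lay 3751, 9754 and 11407 bp downstream (top 38.7%, top 64.8% and top 64.8%), and WT muscle had another 5675 bp upstream (top 24.6%). Like the distal site, the intervals at 9754 and 11407 bp lay beyond the 3′ end of Nr1d1. They were annotated to the transcript end and to intron 8 of Thra. Both stood at the lowest score of the 3SA muscle list, as did the promoter interval.

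**Figure D3:**
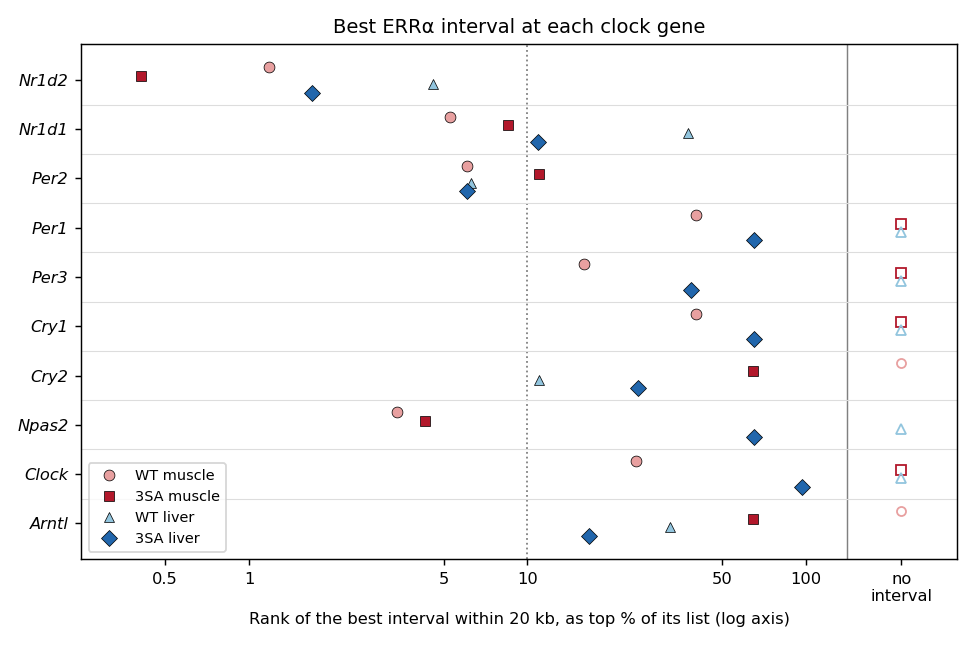
Rank of the best ERRα interval within 20 kb at each clock gene, as top percentage of its list on a log axis, with 1 symbol per list; open symbols at the right mark lists without an interval and the dotted line marks the top 10%. Nr1d2 lies left of that line in all 4 lists and Npas2 in both muscle lists.

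Among the PER genes, whose products repress CLOCK and BMAL1 together with the CRY proteins, Per2 had the most intervals, and Per1 and Per3 had few and weaker ones. The Per2 upstream site, 6738 to 6881 bp from the TSS, was called in all 4 lists. It ranked 1543rd in WT muscle (top 6.07%) and 17698th in 3SA muscle (top 34.9%). In liver it ranked 1536th in WT (top 7.04%) and 1857th in 3SA (top 6.39%). The site was high in 3 lists and lower in 3SA muscle, and its ERRE at chr1:91466066-91466074 lay between 3.5 and 139 bp from the interval centres.

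The Per2 intron 1 site was called in liver of both genotypes and not in muscle. It lay 2207 bp downstream in WT (rank 1369, top 6.28%) and 2356 bp downstream in 3SA (rank 1754, top 6.04%), the highest Per2 rank of each liver list. Its ERRE at chr1:91456907-91456915 also lay in an exon of the non-coding gene model Gm35591. The Per2 promoter site, 825 to 1057 bp upstream, was called at rank 5574 in 3SA muscle (top 11%), where it was the best Per2 interval. It ranked 16370th in WT liver (top 75%) and 5979th in 3SA liver (top 20.6%) and was not called in WT muscle.

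The Per2 intron 4 site, 13153 to 13387 bp downstream, was again called in all 4 lists. It ranked 10219th in WT muscle (top 40.2%) and 11987th in 3SA muscle (top 23.7%). It ranked 6133rd in WT liver (top 28.1%) and 2437th in 3SA liver (top 8.39%). This site held no ERRE in the stretch common to its intervals, where the closest match had 1 mismatch, T1C. Per2 had 8 intervals in 3SA liver, and 0.328% of the 9437 genes called in that list had as many. Of these, 4 were at the recurrent sites and 4 were called in that list alone, at 12078, 17441, 18287 and 19066 bp downstream, between top 34% and top 80.6%. In muscle, an interval 4167 bp upstream was called in 3SA (top 14.3%), and another 8564 bp downstream, in exon 2, in WT (top 40.2%).

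Per1 and Per3 were called near their TSS in WT muscle and 3SA liver. At Per1 the promoter interval lay 163 bp upstream in WT muscle (rank 10219, top 40.2%) and 487 bp upstream in 3SA liver (rank 23394, top 80.6%). Another Per1 interval lay 3185 bp downstream in WT muscle (top 66.4%), and another lay 3175 bp upstream in 3SA liver (top 65%). At Per3 the interval lay in the untranslated part of the first exon, 292 bp downstream of the TSS in WT muscle (rank 4057, top 16%) and 387 bp downstream in 3SA liver (rank 11212, top 38.6%). No Per1 or Per3 interval held an ERRE, and none ranked in the top 10% of its list.

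The CRY genes, whose products are the direct repressors of CLOCK and BMAL1, were each called in muscle and in liver. The sites differed between the tissues at Cry1, whereas the Cry2 interval of 3SA muscle overlapped one of WT liver. Cry1 had an interval in its first exon in WT muscle, 378 bp downstream (rank 10219, top 40.2%). In 3SA liver it had an interval 2706 bp downstream in intron 1 (rank 18865, top 65%). Neither held an ERRE, and the intervals did not overlap. Cry2 was called in both liver lists at an upstream site with an ERRE at chr2:92443726-92443734. Its interval lay 9784 bp upstream in WT liver (rank 2403, top 11%) and 9463 bp upstream in 3SA liver (rank 7231, top 24.9%). A site in Cry2 about its intron 2 and exon 3 was called near the end of the lists, at rank 16370 in WT liver (top 75%) with the ERRE at chr2:92424767-92424775 and at the lowest score in 3SA muscle (rank 32824, top 64.8%). The 3SA muscle interval ended at position 92424767, the last base of that element as read on the minus strand. WT muscle had no Cry2 interval.

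Of the activators, Npas2 was called high in muscle, and Arntl was called in liver. The Npas2 intron 1 site lay 2034 bp downstream of the TSS in WT muscle (rank 862, top 3.39%) and 2036 bp downstream in 3SA muscle (rank 2163, top 4.27%). In 3SA liver it lay 2122 bp downstream at rank 18865 (top 65%), and WT liver had no Npas2 interval within 20 kb. The E-box of this site lay in both muscle intervals and outside the 3SA liver interval. Npas2 also had a promoter interval 851 bp upstream in WT muscle (top 24.6%) and the intron 1 interval with an ERRE 18987 bp downstream in 3SA muscle (top 23.7%).

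The Arntl intron 1 site with the ERRE at chr7:113219688-113219696 was shared by the liver lists. It lay 12256 bp downstream in WT (rank 7108, top 32.6%) and 12272 bp downstream in 3SA (rank 4837, top 16.7%). The remaining Arntl intervals lay upstream, 11390 bp in 3SA muscle at the lowest score (top 64.8%) and 13093 bp in WT liver (top 75%), and WT muscle had none. Clock, the partner of BMAL1, was called at its promoter, 207 bp upstream in WT muscle (rank 16894, top 66.4%) and 275 bp upstream in 3SA liver (rank 28188, top 97.1%). Another Clock interval lay in intron 1, 14969 bp downstream, in WT muscle (rank 6260, top 24.6%). The Clock promoter calls stood among the lower-ranked calls of their lists.

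Members whose best interval was in the top 10% of a list numbered 4 in WT muscle (Nr1d2, Npas2, Nr1d1 and Per2), beside 7.51% of all genes. They numbered 3 in 3SA muscle (Nr1d2, Npas2 and Nr1d1), beside 12.7%. In WT liver they were the 2 genes Nr1d2 and Per2, beside 6.61%, and in 3SA liver the same 2 genes, beside 8.73%. Of the 14 clock gene intervals in the top 10%, 5 held an ERRE and 9 did not. At the other end, 2 intervals at members in WT muscle and 5 in 3SA muscle stood at the lowest score of their list, which was held by 33.6% and 35.2% of all peaks of these lists.

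The ERRE lay in the central 300 bp of intervals at 2 members in WT muscle (Nr1d1 and Per2), 3 in 3SA muscle (Nr1d1, Per2 and Npas2), 4 in WT liver (Arntl, Cry2, Nr1d1 and Per2) and 3 in 3SA liver (Arntl, Nr1d1 and Per2). By intervals these were 2 of 16, 3 of 15, 6 of 14 and 4 of 21. The WT muscle element counted at Nr1d1 was the distal one, in an intron of Thra. Among all intervals within 20 kb of a TSS the ERRE was central in 4.45% in WT muscle, 4.86% in 3SA muscle, 15.2% in WT liver and 14.9% in 3SA liver. The count at members was thus highest in WT liver, and in each list it rested on 2 to 6 intervals. The E-box was central in 3 of the 16 WT muscle intervals, at Nr1d2, Npas2 and Nr1d1, and in 5.45% of all WT muscle intervals within 20 kb. These were the 3 highest-ranked clock gene intervals of WT muscle. In 3SA muscle it was central in 2 of 15, at Npas2 and Nr1d1, beside 5.87%, in WT liver in 1 of 14, beside 5.1%, and in 3SA liver in 1 of 21, beside 5.28%. A ROR element (AANT followed by AGGTCA) or a D-box (TTATGTAA) was central in none of the 66 intervals, and in at most 0.713% of all intervals of any list.

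**Figure D4:**
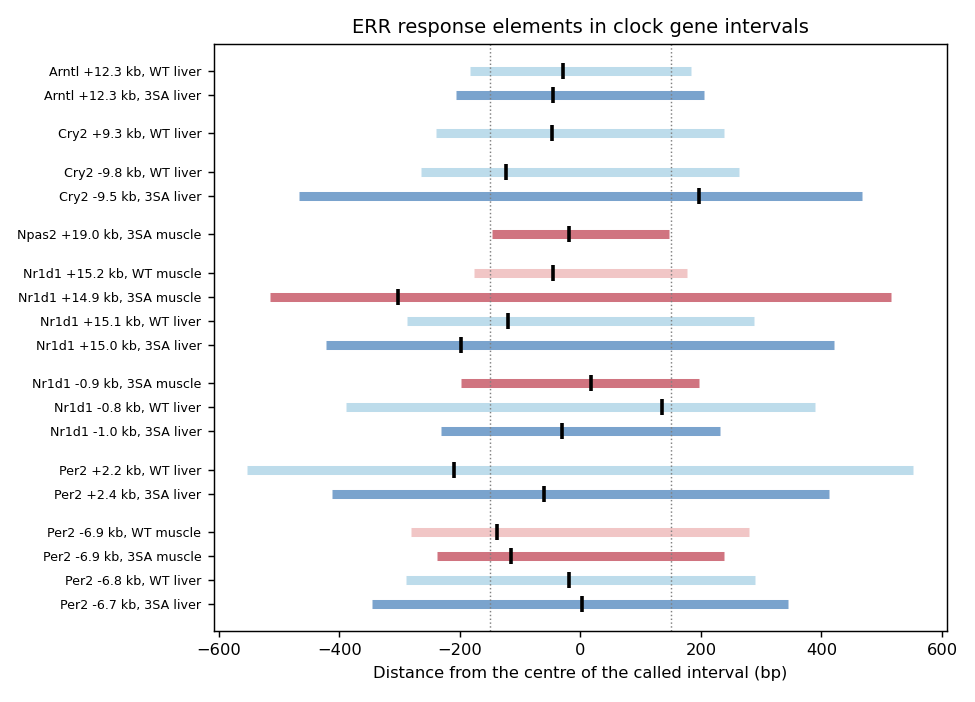
Position of the ERRE (black tick) within each clock gene interval that held one, with the interval drawn as a bar about its centre at 0 bp and coloured by list (light red WT muscle, dark red 3SA muscle, light blue WT liver, dark blue 3SA liver); dotted lines mark the central 300 bp. In 15 of the 19 intervals the element lay within the dotted lines.

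Merging of overlapping intervals gave 38 sites, of which 22 were called in 1 list, 8 in 2 lists, 4 in 3 lists and 4 in all 4 lists. The sites called in all 4 lists were the Nr1d2 intron 1 site, the distal Nr1d1 site and the Per2 upstream and intron 4 sites. Of the sites called in 1 list, 1 of 22 held an ERRE, and of the others, 4 of 8, 1 of 4 and 2 of 4 did, in the same order. By genotype, 6 of the 16 WT and 6 of the 15 3SA muscle intervals were shared, and 9 of the 14 WT and 9 of the 21 3SA liver intervals. Over all intervals within 20 kb of a TSS, 23.4% of WT and 12.9% of 3SA muscle intervals and 49.1% of WT and 34.2% of 3SA liver intervals were shared. Within 1 kb of the TSS lay 6 of the 16 WT muscle, 3 of the 15 3SA muscle, 2 of the 14 WT liver and 6 of the 21 3SA liver intervals, beside 26.2%, 17.4%, 20.6% and 22.6% of all intervals within 20 kb.

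The distance limit left out 19 intervals annotated to the members, of 85 in all. Just inside it were the Per2 interval of 3SA liver at 19066 bp and the Npas2 interval of 3SA muscle at 18987 bp. Just outside were Per2 intervals in intron 9 at 21224 bp in 3SA muscle (top 64.8%) and at 22334 bp in WT muscle (top 40.2%). Some of the intervals left out recurred. In Arntl intron 2, overlapping intervals lay 43507 bp downstream in 3SA muscle (top 15.5%), 43691 bp downstream in WT liver (top 25.3%) and 43646 bp downstream in 3SA liver (top 37.5%). Further along this intron, overlapping intervals lay 66475 to 66830 bp downstream in the same lists, between top 23.7% and top 44.8%. An ERRE lay in each of the latter and in the 3SA muscle and 3SA liver intervals at 43507 and 43646 bp. The interval at 43507 bp also held a central ROR element. A Cry1 interval 27390 bp downstream in 3SA liver (top 19.3%) held an ERRE as well. In Npas2 intron 1, an interval 41238 bp downstream in 3SA muscle ranked 3101st (top 6.12%) and also held an ERRE. This Npas2 interval was the only one beyond the limit in the top 10% of its list.

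The further genes of the clock were counted in the same way. Of 19 such genes, among them kinases and ubiquitin ligases of the PER and CRY proteins and output factors, 11 had an interval within 20 kb in WT muscle, 13 in 3SA muscle, 10 in WT liver and 14 in 3SA liver, beside the 45.1%, 63.5%, 39.2% and 49.2% of all genes given above. In the same order, 4, 4, 2 and 3 of them had one in the top 10%, beside 7.51%, 12.7%, 6.61% and 8.73% of all genes. Bhlhe40, whose product DEC1 represses through E-boxes, had its best interval at top 0.81% in WT muscle, top 0.519% in 3SA muscle, top 2.77% in WT liver and top 2.84% in 3SA liver. It ranked above the Nr1d2 interval in WT muscle and WT liver and below it in both 3SA lists. Csnk1d, the gene of casein kinase 1δ, which phosphorylates PER proteins, was in the top 10% of all 4 lists, between top 1.83% and top 6.68%. Nfil3, a repressor at D-boxes, was called at top 16% in WT and top 5.37% in 3SA muscle, and at top 10.3% in WT and top 2.75% in 3SA liver. Gsk3b, the gene of a kinase that phosphorylates clock proteins, had no interval in any list.

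Over the 4 lists, Nr1d2 had a geometric mean of top 1.39% for its best interval, which was 172nd of the 3074 genes called in all 4 lists. Per2 was 815th (top 7.09%) and Nr1d1 1228th (top 11.6%). The genes with the pattern of ranks nearest to Nr1d2, by the distance between log10 top percentages over the 4 lists, were Thrsp (distance 0.158), Cox8a (0.207) and Cyp2u1 (0.213). Cox8a encodes a subunit of cytochrome c oxidase and Thrsp a protein of lipogenesis.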

How the data were processed

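ERRα ChIP-seq libraries of WT and ERRα 3SA liver and skeletal muscle were analysed from the deposited peak lists, 1 per genotype and tissue. Per the labels and the methods, the authors used Trimmomatic 0.36 for trimming and BWA 0.7.12 for mapping to mm10, removed duplicates with Picard 2.0.1, called peaks with MACS2 2.1.1.20160309 against input DNA, dropped mitochondrial and scaffold peaks, and annotated the rest with HOMER 4.9.1. The score in the deposited lists is the peak caller's value, whose scale is not stated, and was used to rank peaks within a list (ties took the best rank). GC content is a deposited fraction of each interval. Recomputed from RefSeq GRCm38.p6, it equalled the listed value for all 85 member intervals. Intervals varied in width although the methods describe fixed windows about the summit, so motifs were searched on both strands in the central 300 bp. Depth is unknown and no count was tested.

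The members, the 19 further clock genes, the tissue marker lists and the settings were chosen with earlier results of these data known, and the core AAGGTCA and the match with 1 mismatch were added after the motif results were seen. Genes were named by rule: every member, examples of the further clock genes, and the 3 genes nearest in rank pattern to the best-ranked member. On simulated data, the overlap rules and motif search were tested and all 400 planted partners among 1500 intervals and all 150 planted motifs in 500 windows were found, none falsely. Alternatives were other distances, score minimums, lists of equal length, other overlap rules, another motif, ties at the worst rank, and intervals assigned by the RefSeq start of the gene, the last chosen after seeing the data. Python 3.11.15 with numpy 2.4.6, pandas 2.3.3, pysam 0.24.0 and matplotlib 3.10.9 was used, with samtools 1.23.1.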

Additional observations from a re-analysis of the deposited data

Results flagged for a closer look

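The genotype difference in the number of clock genes with an interval had opposite signs in the tissues, with -2 genes in muscle and 5 genes in liver (3SA minus WT). The muscle difference was lost at a score of at least 50, with 4 genes in each genotype, and at a score of at least 100, with 2 in each. It grew when the 3SA list was cut to the length of the WT list, with 8 genes in WT and 4 in 3SA muscle. Liver then held 5 in WT and 9 in 3SA. Calls tied in score at the cut were kept in the order of the deposited list. The 3SA liver calls of Npas2 and Cry1 and the better Per1 call, all at a score of 37, were among such ties. The 3SA liver counts at equal length therefore depended on that order. The number of intervals at these genes also differed in opposite directions, by -1 in muscle and by 7 in liver. At a score of at least 50 muscle had 4 intervals in WT and 5 in 3SA, which turned the sign to that of liver, and at a score of at least 100 it had 2 in each. With lists of equal length, muscle had 16 in WT and 10 in 3SA, and liver had 14 and 17. The top percentage of the best Per2 interval differed by 4.94 percentage points in muscle, between the upstream site in WT and the promoter site in 3SA, and by -0.236 points in liver, both at the intron 1 site. The Per2 upstream site itself went from top 6.07% in WT to top 34.9% in 3SA muscle. In liver the rank number of the intron 1 site was higher in 3SA (1754 against 1369), and the 3SA list was longer. The top percentage of the best Nr1d1 interval differed by 3.26 points in muscle, both at the intron 1 site, and by -26.7 points in liver, between the promoter site in WT and the distal site in 3SA. Site by site in liver, the Nr1d1 promoter site went from top 37.6% in WT to top 21.1% in 3SA and the distal site from top 98% to top 10.9%. None of these differences between tissues was tested, since each rests on 1 library per genotype and tissue.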

How the results depend on the processing

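Of 82 recomputed values, 56 stayed within 1.5 times the reported count and 26 moved. A score of at least 50 left 4, 4, 4 and 6 members and 4, 5, 6 and 12 intervals in WT muscle, 3SA muscle, WT liver and 3SA liver, so the muscle genotype difference in members was lost and that in intervals changed sign. A score of 49 stood at top 16%, top 15.5%, top 37.6% and top 44.8% in that order, so this minimum was stricter on the muscle lists. A score of at least 100 left 2, 2, 3 and 4 members and 2, 2, 4 and 7 intervals in that order, with 2 members shared between genotypes in muscle, 2 in liver and 1 member (Nr1d2) in all 4 lists. A distance of 5 kb left 9, 7, 6 and 12 intervals and 3 members in WT liver, and 50 kb gave 5 members in all 4 lists. The top 5% held 2 members in WT muscle, 1 in WT liver and 1 in 3SA liver. The cause of these shifts is the setting itself, which keeps or adds intervals. Lists of equal length, other overlap rules and the motif TNAAGGTCA moved no count by more than 1.5 times. Within that limit, lists of equal length took 3SA muscle from 6 to 4 members and from 15 to 10 intervals. An Nr1d1 interval at a score of 36 was kept there by list order among tied calls. WT muscle stayed at 8 members and 16 intervals, so the muscle genotype difference grew. Assigning intervals by RefSeq start, chosen after seeing the data, added Per1 in 3SA muscle and WT liver and removed Arntl in 3SA liver, which gave 4 members in all 4 lists. No paired analysis was possible because each genotype and tissue had 1 library, and depth sets what is called in a list to an unknown extent.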
